A study of Homo sapiens with 17 samples.

Results

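The cells titled MCF10 received DZH_2, of which only the code name is used here, at an IC20 and at an IC50 concentration, with 1 array for each dose. These 2 arrays were set together against 1 array of DMSO-treated cells and 1 array of untreated cells, so 4 of the 17 arrays of the study are described. The members were chosen by title, and a gene was named only where both treated arrays lay beyond both control arrays. The other 13 arrays came from MDA-MB-231, a mesenchymal breast cancer line, of which 7 (DZH_2 at both doses, DMSO and untreated cells) serve for comparison. The rest, from cells given Maraviroc (IC20 or IC50) or ethanol, enter only where the spread is taken from all 17 arrays. IC20 and IC50 are concentrations that inhibit by 20% and 50%, and the sources used here do not give the amounts. Treatment lasted 48 h and began after 24 h of seeding, and the same seeding, RNA extraction and labelling applied to all groups. The labels do not say whether any arrays came from separate cultures, so every p-value reflects how far these arrays vary, a variation that may be technical.

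MCF10 names a family of non-tumorigenic mammary epithelial lines. For these 4 arrays the titles and descriptions say MCF10 while the cell line field says MDA-MB-231, and the titles were followed. The markers of a mammary epithelial cell were present only in part. In the DMSO and untreated arrays the basal keratin KRT5 had a log2 signal of 8.92 and 9.66, and the basal calcium-binding protein S100A2 had 14.78 and 14.91. The basal markers ITGB4 (15.13 and 15.45) and SFN (11.52 and 11.16) were also present. So were the luminal keratins KRT8 (14.06 and 14.30) and KRT18 (12.74 and 12.86). The basal keratin KRT14 (5.15 and 4.36), the epithelial cadherin CDH1 (4.51 and 3.62) and the epithelial adhesion molecule EPCAM (4.87 and 5.61) lay below 6.29, a level that 75% of the negative control probe sets on these arrays do not exceed. Genes with a mean below it are called near the negative controls. The intermediate filament VIM stood at 15.21 and 15.24 and fibronectin, FN1, at 17.60 and 17.69, both mesenchymal markers. Of the markers measured, 6 of 8 basal, 3 of 11 luminal, 6 of 7 mesenchymal, 6 of 10 fibroblast, 3 of 3 leukocyte and 1 of 3 endothelial markers were above the negative controls in the control arrays. Signal above this level thus did not single out one cell type. The name MCF10 is therefore used as a title and not as a cell type.

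Values are log2 signals, and a difference is the mean of the treated arrays minus the mean of the control arrays, with its standard error (±) from limma, n = 2 against 2. Across 17687 genes the DMSO and untreated arrays correlated at 0.976, the 2 doses at 0.955, and each dose with DMSO at 0.934 (IC20) and 0.949 (IC50). The IC20 array had the narrowest interquartile range of signal (3.34, against 3.51 to 3.62), the highest negative control level (6.60, against 6.05 to 6.21) and the lowest positive control median (11.01, against 11.38 to 11.54). Set against DMSO as single arrays, IC20 had 2060 genes higher (11.6%) and 2264 lower (12.8%) by at least 1, IC50 had 1659 (9.38%) and 1562 (8.83%), and the untreated array 726 (4.1%) and 738 (4.17%). These pairs share the DMSO array and carry no test. The part of the IC20 array's features in the results was not tested. Every call of the 4-array fit depends on that array, and for the main lists the counts without it are given with the spread of all 17 arrays. In bulk RNA, fewer cells of one kind and less RNA per cell cannot be told apart.

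Cholesterol is made from acetyl-CoA through mevalonate, squalene and lanosterol, and fatty acids are made from the same precursor. In mammalian cells the SREBP transcription factors drive the genes of both routes when membrane sterol is low, and INSIG1 holds SREBP back in the endoplasmic reticulum. Mitotic genes such as CDC20 and PLK1 are transcribed in waves in dividing cells, in large part under FOXM1 and MYBL2. Epithelial sodium channels, built from subunits that include SCNN1B and SCNN1G, carry sodium across the apical membrane of many epithelia.

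With DZH_2, 14 enzymes of sterol synthesis rose in the cells titled MCF10. A sodium channel pair, 4 mitotic genes of the G2/M list and 2 of 14 basal markers fell. The basal list as a whole did not move one way (median -0.16). By limma with Benjamini-Hochberg adjustment over all genes, 45 genes rose (0.254% of those tested) and 49 fell (0.277%), and in all 94 (0.531%) both treated arrays lay beyond both control arrays. The smallest difference among them was 2.24 in size. Without a test, 1112 genes (6.29%) had both treated arrays above both controls with a mean difference of at least 1, and 1312 (7.42%) lay below by as much, 13.7% of all genes together. With only 4 arrays the fit has 2 residual degrees of freedom, and the spread it uses contains the difference between doses and that between DMSO and untreated cells. Leaving out the IC20 array or the IC50 array left no gene past the threshold in limma (smallest adjusted p 0.0652 and 0.0649, with 2796 and 3984 genes at an unadjusted p under 0.05, against 2798, or 15.8%, with all 4 arrays). Leaving out DMSO left 39 genes and leaving out the untreated array 33. When the spread was taken from all 17 arrays, limma called 2171 genes (12.3%), 1033 up and 1138 down, with all 94 among them. In that fit each array titled MCF10 was a group of its own. The spread thus came only from duplicate MDA-MB-231 arrays, those of Maraviroc and ethanol included. It held no variation between the arrays titled MCF10.

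The genes below are the 14 that rose most and the 14 that fell most among those called, with adjusted p from 0.0011 to 0.026 (limma). The plot of their signal in each array shows the treated and control arrays apart for every one of them.

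**Figure D1:**
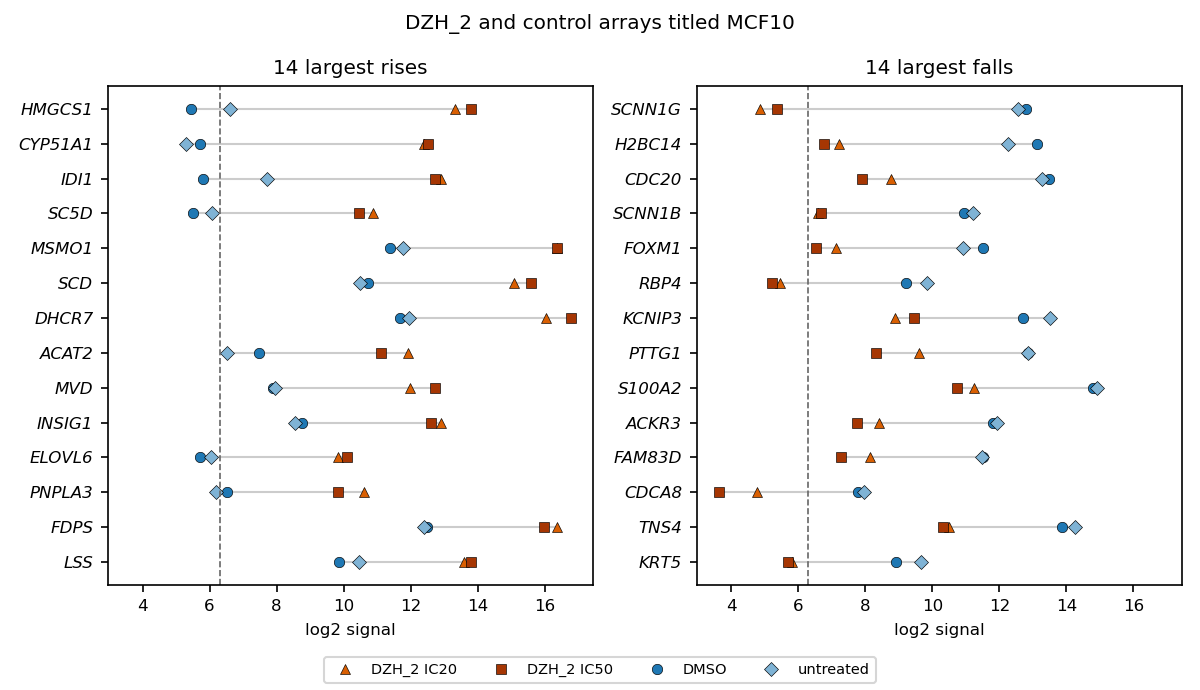
Log2 signal (x axis) of the 14 largest rises (left) and the 14 largest falls (right) on the 4 arrays titled MCF10, 1 point per array, joined by a line across the range of the 4 values. The dashed line marks the 75th percentile of the negative controls, 6.29. HMGCS1 goes from 5.44 and 6.59 in the controls to 13.33 and 13.79 in the treated arrays, and SCNN1G from 12.80 and 12.54 to 4.85 and 5.36.

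Most of the sterol synthesis list rose. Of 17 members measured, 14 rose and none fell by limma, against 0.254% of all genes rising, and 16 had both treated arrays above both controls, against 23.7% of all genes. The median difference over the list was 3.74, and 0.02 over all genes. With the spread of all 17 arrays 16 of 17 passed upward, against 5.84% of all genes, and 15 without either the IC20 or the IC50 array. In the fit on these 4 arrays alone the count was 10 without DMSO, 12 without the untreated array and 0 without either dose array, as for all lists below.

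HMGCS1, which makes HMG-CoA for the mevalonate route, had 13.33 at IC20 and 13.79 at IC50, against 5.44 in DMSO and 6.59 in untreated cells. It showed the largest rise of all genes past the threshold, 7.54 ± 0.47 (adjusted p = 0.0031, limma). Its control mean lay near the negative controls, so the size of this rise is read from a floor. ACAT2, which joins acetyl-CoA units at the start of the route, had 11.91 and 11.12 against 7.46 and 6.51, a rise of 4.53 ± 0.46 (adjusted p = 0.014, limma).

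Downstream of mevalonate, the decarboxylase MVD went from 7.89 in DMSO and 7.95 in untreated cells to 11.97 and 12.73 (4.43 ± 0.39). The isopentenyl isomerase IDI1 went from 5.80 and 7.70 to 12.91 and 12.74 (6.07 ± 0.60), and its 2 control arrays lay further apart than its 2 treated arrays. The farnesyl diphosphate synthase FDPS reached 16.38 and 15.98 from 12.48 and 12.39 (3.74 ± 0.35). Both mevalonate kinases missed the threshold and lay on opposite sides. MVK had 11.29 at IC20 and a treated mean of 11.14, against 9.54 and 8.53 (difference 2.11, adjusted p = 0.088, limma). PMVK, the second kinase, was the 1 member with treated arrays below both controls, at 9.01 and 8.72 against 9.95 and 9.84 (difference -1.03, adjusted p = 0.21, limma).

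The enzymes that close and trim the sterol rings rose, apart from NSDHL. Squalene epoxidase SQLE had 12.10 and 11.85 against 8.41 and 8.49 (3.52 ± 0.34), and lanosterol synthase LSS had 13.58 and 13.81 against 9.87 and 10.46 (3.53 ± 0.37). CYP51A1, the lanosterol demethylase, had 12.41 and 12.52 against 5.72 and 5.29, a rise of 6.96 ± 0.35 (adjusted p = 0.0011, limma) from a level near the negative controls. The doses differed by only 0.11 for this gene. MSMO1, the C4 methyl oxidase, went from 11.38 and 11.76 to 16.37 and 16.36 (4.80 ± 0.35). SC5D, the sterol desaturase, went from 5.50 and 6.07, near the negative controls, to 10.86 and 10.46 (4.87 ± 0.38). DHCR7, the last reductase of the route, went from 11.69 and 11.96 to 16.03 and 16.79 (4.58 ± 0.40). Neither control array reached a treated array in any of them. HSD17B7 (3.27), TM7SF2 (2.80) and EBP (2.62) also rose, and NSDHL had a difference of 0.94 that missed the threshold (adjusted p = 0.28, limma).

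**Figure D2:**
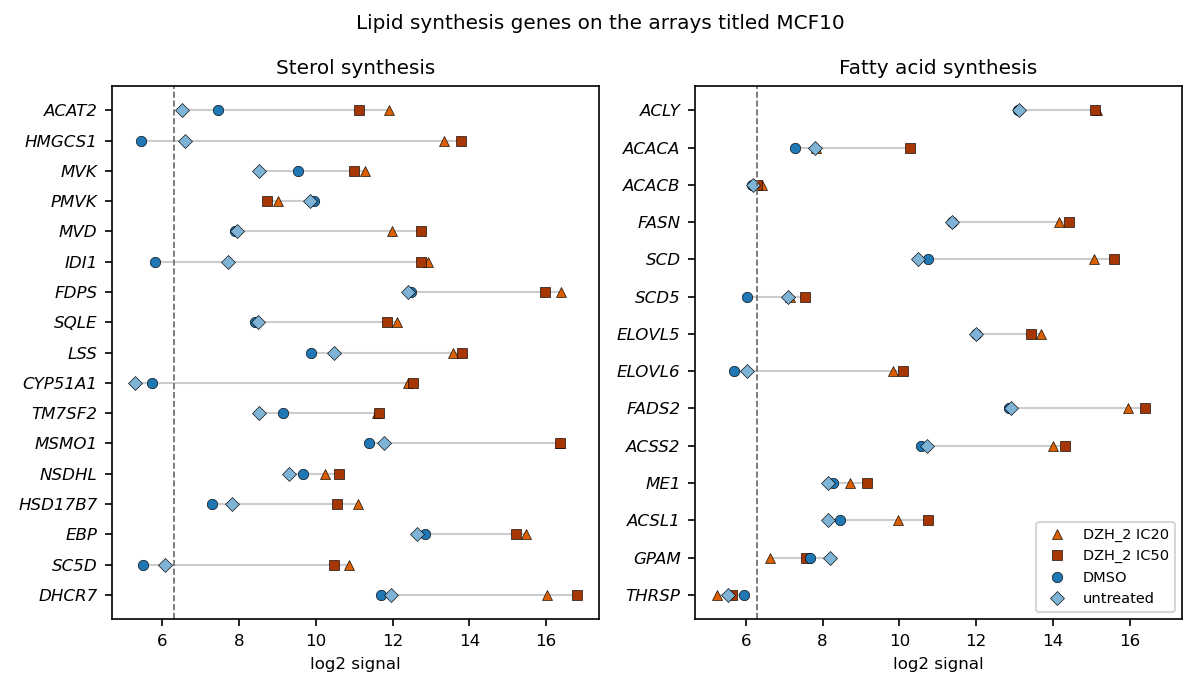
Log2 signal (x axis) of the measured genes of sterol synthesis, in the order of the route (left), and of fatty acid synthesis (right) on the 4 arrays titled MCF10, 1 point per array. The dashed line marks the 75th percentile of the negative controls, 6.29. PMVK is the 1 sterol gene with both treated arrays to the left of both controls, and ACACA has a high signal at IC50 only, 10.28 against 7.82 at IC20.

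Because the RNA of these genes rose together, the 250 bases before the start of 6 of the sterol genes are shown, from RefSeq in GRCh38.p14, read 5′ to 3′ on the strand of the gene. Capitals mark each CCAAT, or ATTGG for the opposite strand, a letter pattern known as the CCAAT box and bound by the factor NF-Y. The windows are chr5:43313413-43313662 (minus strand) for HMGCS1, chr7:92134478-92134727 (minus) for CYP51A1, chr4:165327419-165327668 (plus) for MSMO1, chr11:71448394-71448643 (minus) for DHCR7, chr1:155308616-155308865 (plus) for FDPS and chr16:88663092-88663341 (minus) for MVD. CYP51A1, with no match, is included for contrast.
HMGCS1: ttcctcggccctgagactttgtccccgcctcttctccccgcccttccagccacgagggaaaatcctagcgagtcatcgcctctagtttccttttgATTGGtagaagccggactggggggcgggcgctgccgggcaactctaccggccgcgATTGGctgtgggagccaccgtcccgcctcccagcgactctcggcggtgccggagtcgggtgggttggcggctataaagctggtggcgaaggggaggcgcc
CYP51A1: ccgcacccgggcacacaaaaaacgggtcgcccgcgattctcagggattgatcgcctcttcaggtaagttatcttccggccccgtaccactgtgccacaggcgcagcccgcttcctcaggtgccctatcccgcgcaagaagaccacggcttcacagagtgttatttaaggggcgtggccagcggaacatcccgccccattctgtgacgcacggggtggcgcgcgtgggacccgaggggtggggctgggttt
MSMO1: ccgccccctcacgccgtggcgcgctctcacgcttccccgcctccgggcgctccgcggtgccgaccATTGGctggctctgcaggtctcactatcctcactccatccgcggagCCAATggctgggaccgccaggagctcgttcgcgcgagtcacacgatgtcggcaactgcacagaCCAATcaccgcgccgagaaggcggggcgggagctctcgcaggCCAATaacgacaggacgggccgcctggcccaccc
DHCR7: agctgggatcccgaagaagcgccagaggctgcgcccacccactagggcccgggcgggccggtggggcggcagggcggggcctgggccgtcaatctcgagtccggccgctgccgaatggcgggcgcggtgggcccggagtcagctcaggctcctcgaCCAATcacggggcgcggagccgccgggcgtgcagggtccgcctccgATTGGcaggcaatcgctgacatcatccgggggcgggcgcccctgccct
FDPS: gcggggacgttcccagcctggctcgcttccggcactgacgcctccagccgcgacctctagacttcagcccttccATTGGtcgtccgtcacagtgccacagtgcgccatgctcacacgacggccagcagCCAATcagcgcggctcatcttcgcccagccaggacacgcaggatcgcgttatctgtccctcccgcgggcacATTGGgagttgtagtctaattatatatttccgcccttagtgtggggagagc
MVD: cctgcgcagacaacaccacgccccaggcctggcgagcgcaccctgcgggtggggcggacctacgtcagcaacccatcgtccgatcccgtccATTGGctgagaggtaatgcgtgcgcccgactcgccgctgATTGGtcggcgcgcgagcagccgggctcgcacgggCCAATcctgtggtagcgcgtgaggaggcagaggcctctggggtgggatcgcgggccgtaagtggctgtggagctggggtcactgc

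In HMGCS1 the matches began 155 and 100 bases before the start, and in MSMO1 185, 139, 76 and 34 bases before it. Of 15 sterol list promoters in the table, 12 held a CCAAT box (80%), against 33% of all 27305 promoters, and 8 held 2 or more (53.3%), against 10% of all. The box also stood in 58.8% of the promoters of genes that rose (20 of 34) and in 56.1% of those that fell (23 of 41). The sterol regulatory element letters TCACNCCAC were in 0 of the 15 windows and in 0.875% of all promoters, which says only that these letters are not in these windows. The CCAAT box was chosen as a motif after the data were seen, and a match is a description and not a binding site.

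Fatty acid synthesis genes rose in part. Of 14 measured, 5 rose and none fell by limma, against 0.254% of all genes rising, and 12 had both treated arrays above both controls, against 23.7%, with a median difference of 1.79. The fit with the spread of all 17 arrays had 8 up, and 8 without the IC20 array. Without DMSO, and without the untreated array, 3 rose. SCD, the stearoyl-CoA desaturase, had 15.07 and 15.60 against 10.74 and 10.48 (4.73 ± 0.37, adjusted p = 0.0061, limma). ELOVL6, which lengthens palmitate, had 9.83 and 10.11 against 5.70 and 6.04 (4.10 ± 0.35, adjusted p = 0.0084, limma), and its control mean lay near the negative controls. ACSS2, which makes acetyl-CoA from acetate, rose by 3.52, the desaturase FADS2 by 3.29 and the fatty acid synthase FASN by 2.91. The carboxylase ACACA had 7.82 at IC20, 10.28 at IC50, 7.29 in DMSO and 7.82 in untreated cells, and did not pass (adjusted p = 0.38, limma). PNPLA3, a lipid droplet lipase outside the list, had 10.60 and 9.85 against 6.53 and 6.20 (3.86 ± 0.40, adjusted p = 0.014, limma).

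Of 9 genes of sterol uptake and its regulation, 2 rose and none fell, and 1 rose without DMSO or without the untreated array. Over all genes 0.254% rose with the 4 arrays. INSIG1 had 12.90 and 12.61 against 8.76 and 8.55 (4.10 ± 0.35, adjusted p = 0.0084, limma), and NPC1, which exports cholesterol from the lysosome, had 13.52 and 13.28 against 10.93 and 10.74 (2.57 ± 0.34, adjusted p = 0.033, limma). SREBF2, the SREBP gene most tied to sterol synthesis, had a difference of 1.20 (adjusted p = 0.19, limma), and SREBF1 one of -0.59 (adjusted p = 0.47, limma). Of 11 genes of the LXR list, which holds sterol exporters and other genes, none passed (0 up and 0 down by limma). The largest difference was that of LPCAT3, with 9.75 and 10.07 against 11.78 and 11.87 (-1.92, adjusted p = 0.067, limma). It passed with the spread of all 17 arrays. The sterol exporters ABCA1 and ABCG1 were near the negative controls in treated and control arrays alike, with 4.34 to 4.98 and 5.34 to 6.20, which gives no measured level to compare.

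The largest fall was that of SCNN1G, the gamma subunit of the epithelial sodium channel. It had 4.85 at IC20 and 5.36 at IC50, near the negative controls, against 12.80 in DMSO and 12.54 in untreated cells, a difference of -7.56 ± 0.37 (adjusted p = 0.0011, limma). SCNN1B, the beta subunit, had 6.59 and 6.68 against 10.93 and 11.20, a difference of -4.43 ± 0.34 (adjusted p = 0.0061, limma). In RefSeq the 2 genes are direct neighbours among protein-coding genes. Both fell at both doses, and neither treated array came within 4 log2 units of a control array.

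A set of mitotic genes fell. Of 36 in the G2/M list, 4 fell and none rose by limma, against 0.277% of all genes falling, and 24 had both treated arrays below both controls, against 22.9% of all. The median was -1.61. A higher treated mean was seen in NUF2 (0.71), PRC1 (0.60), NEK2 (0.33), HMMR (0.32), BUB1 (0.20) and CENPF (0.05). In none of them did both treated arrays lie above both controls. When the spread came from all 17 arrays, 22 fell, against 6.43% of all genes. In that fit 19 fell without the IC20 array, and 14 fell and 1 rose without the IC50 array. CDC20, the activator of the anaphase ligase, had 8.77 and 7.91 against 13.49 and 13.28 (-5.05 ± 0.41, adjusted p = 0.0068, limma). FOXM1, a transcription factor of mitotic genes, had 7.11 and 6.52 against 11.50 and 10.92 (-4.40 ± 0.40, adjusted p = 0.0092, limma). PTTG1, the securin, had 9.61 and 8.32 against 12.84 and 12.85, and UBE2C, a ubiquitin-conjugating enzyme of the same ligase, had 7.69 and 6.86 against 11.03 and 10.47. In these 4 genes the IC50 array was the lower of the 2 treated arrays. The mitotic kinase PLK1 had 12.92 at IC20 and 9.90 at IC50 against 15.18 and 14.99, and with that gap between doses it did not pass (adjusted p = 0.11, limma).

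Outside the list, CDCA8, a subunit of the chromosomal passenger complex, had 4.75 and 3.62, near the negative controls, against 7.79 and 7.96 (-3.69 ± 0.45). FAM83D, a spindle protein, had 8.13 and 7.26 against 11.50 and 11.47 (-3.79 ± 0.40). The promoter of CDC20 is shown because CDC20 had the largest fall of the list, with the cell cycle homology region letters TTTGAA or TTCGAA, on either strand, in capitals. The window is chr1:43358731-43358980 on the plus strand of GRCh38.p14, from RefSeq, and the matches begin 178 and 65 bases before the start.
CDC20: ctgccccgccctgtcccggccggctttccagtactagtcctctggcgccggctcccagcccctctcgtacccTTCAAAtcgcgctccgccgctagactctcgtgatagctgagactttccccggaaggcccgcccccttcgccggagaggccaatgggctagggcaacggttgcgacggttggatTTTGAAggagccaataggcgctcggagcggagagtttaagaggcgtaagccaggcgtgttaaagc

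Of 30 G2/M promoters in the table, 16 held these letters (53.3%), against 14.6% of all promoters, and 23 held a CCAAT box (76.7%). This motif too was chosen after the data were seen.

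In the G1/S and DNA replication list none of 39 passed in either direction, and the median was -0.66. Both treated arrays lay below both controls in 20 members and above them in 1, against 22.9% and 23.7% of all genes. RRM2, a ribonucleotide reductase subunit, had 7.40 and 5.76 against 9.36 and 9.82 (adjusted p = 0.072, limma). Of 33 replication-dependent histones 1 fell, against 0.277% of all genes. It was H2BC14, with 7.22 and 6.75 against 13.13 and 12.25 (-5.71 ± 0.42, adjusted p = 0.0061, limma). Histone genes have near-identical copies, so the probe set may read more than 1 of them. The median of the histones was -1.08, and single-array medians against DMSO were -0.51 at IC20 and -1.56 at IC50.

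The basal list did not move one way. Of 14 members, 2 fell and none rose, and 1 fell without the untreated array. Over all genes 0.277% fell with the 4 arrays. Both treated arrays lay below both controls in 4 members and above them in 4, against 22.9% and 23.7% of all genes, and the median was -0.16. Using the spread of all 17 arrays, 4 fell and 2 rose, and the same counts came without the IC20 array. With that spread and all 4 arrays titled MCF10, 6.43% of all genes fell and 5.84% rose. S100A2 had 11.25 and 10.74 against 14.78 and 14.91 (-3.85 ± 0.36, adjusted p = 0.011, limma), and KRT5 had 5.81 and 5.70, near the negative controls, against 8.92 and 9.66 (-3.54 ± 0.39, adjusted p = 0.017, limma). The desmosome protein DSP and SFN, an epithelial 14-3-3 protein, lay the other way. SFN had 12.13 and 13.11 against 11.52 and 11.16, and did not pass (adjusted p = 0.21, limma). DSP stood at 8.62 and 9.55 against 7.07 and 6.997, and did not pass (adjusted p = 0.085, limma). The log2 summed signal of the basal list was 14.56 and 14.35 in the treated and 16.09 and 16.31 in the control arrays. Its brightest genes dominated this sum, ITGB4 and S100A2 in the control arrays and ITGB4 and SFN in the treated arrays. The same sum over the luminal list was 13.77 and 14.43 against 14.67 and 14.86, and over the fibroblast list 15.01 and 14.75 against 15.51 and 15.46. The part of a shift in cell makeup in these falls was not tested.

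Among the other falls, TNS4, a focal adhesion protein, had 10.49 and 10.32 against 13.88 and 14.24 (-3.66 ± 0.35). ACKR3, a chemokine scavenging receptor, had 8.42 and 7.74 against 11.81 and 11.94 (-3.80 ± 0.38) and was the 1 of 17 members of the chemokine receptor list that passed. KCNIP3, a calcium-binding partner of potassium channels, had 8.89 and 9.44 against 12.69 and 13.50 (-3.92 ± 0.42). RBP4, the retinol carrier, had 5.44 and 5.22, near the negative controls, against 9.21 and 9.85 (-4.20 ± 0.38). In all 4 genes the treated arrays lay over 3 log2 units below the controls. For the list calls of ACKR3 and of TWIST2 below, the share of all genes falling was 0.277%. The mesenchymal transcription factor TWIST2 fell by 3.39, the 1 of 20 mesenchymal markers that passed, and 0 passed without the untreated array.

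Few stress genes passed in the pooled comparison. Of 29 ATF4 response genes 2 rose and none fell by limma, the secreted glycoprotein STC2 (2.67) and the stress transcription factor DDIT3 (2.43), and 0 passed without DMSO or without the untreated array. The control mean of DDIT3, 5.08, lay near the negative controls. The cystine transporter SLC7A11 had 8.36 at IC20 and 12.05 at IC50 against 7.57 and 6.55, and did not pass (adjusted p = 0.21, limma). The median of the list against DMSO was -0.04 at IC20 and 1.12 at IC50, and that of 23 unfolded protein response genes -0.18 and 0.83, with none passing. Each dose is 1 array, and both are set against the same DMSO array, so these medians carry no test.

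Of 32 interferon-induced genes 1 rose, IFIT1 (2.98, from a level near the negative controls), and 19 had both treated arrays above both controls, against 0.254% and 23.7% of all genes. Of 28 lysosomal genes 1 rose, the ceramidase ASAH1, with 14.09 and 12.80 against 10.35 and 10.29. The other 1-gene calls among the lists were the glucose transporter SLC2A3 (2.96, hypoxia and glycolysis), the receptor TGFBR1 (2.32, TGF-beta targets), the protease FAP (2.36, fibroblast markers) and the collagen COL8A1 (-2.72, collagens and matrix). FAP rose from a level near the negative controls. For each of these 1-gene calls the shares over all genes were 0.254% rising and 0.277% falling. In these 4 lists and in the interferon and lysosome lists 0 members passed without DMSO, and 0 without the untreated array. The TGF-beta and lysosome calls were also lost under quantile normalization. The low-signal filter removed IFIT1 and FAP for their low mean signal, so their calls were not tested under it. None of 28 respiratory chain genes and none of 20 ribosomal protein genes passed in either direction, and 17 and 15 of them had both treated arrays below both controls, against 22.9% of all genes. With the spread of all 17 arrays 7 respiratory chain genes fell and 2 rose, and 7 ribosomal protein genes fell and 1 rose, against 6.43% of all genes falling. Without the IC20 array that fit had 2 and 3 falling. In the remaining lists no member passed by limma: aryl hydrocarbon receptor targets, NRF2 and oxidative stress, heat shock, p53 targets, apoptosis, immediate early genes, NF-kB targets, YAP and TEAD targets, matrix proteases, autophagy, metallothioneins, cytoskeleton, luminal, keratinocyte differentiation, and endothelial and leukocyte markers. Of 8 aryl hydrocarbon receptor targets, CYP1B1 narrowly missed, with 10.32 and 9.95 against 6.56 and 7.74 (difference 2.98, adjusted p = 0.052, limma). Its difference in MDA-MB-231 was 3.20. CYP1A1 stayed near the negative controls in the cells titled MCF10. Taking the spread from all 17 arrays, CYP1B1 rose and ALDH3A1 fell, and no other target of that list passed. With the spread of all 17 arrays, upward calls were 9 of 22 for NRF2 and oxidative stress, 7 of 28 for the lysosome, 7 of 32 for interferon-induced genes, 5 of 29 for ATF4 and 4 of 23 for the unfolded protein response, against 5.84% of all genes. In that fit 5 of 9 sterol uptake and regulation genes and 3 of 13 heat shock genes also rose. Of 18 apoptosis genes 4 rose and 2 fell, and of 28 autophagy genes 5 rose and 1 fell. Downward calls were 11 of 33 for histones and 7 of 39 for G1/S, against 6.43%. They were also 4 of 20 for mesenchymal and 3 of 16 for endothelial and leukocyte markers. Of 18 fibroblast markers 4 fell and 2 rose, and of 35 collagen and matrix genes 6 fell and 1 rose.

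**Figure D3:**
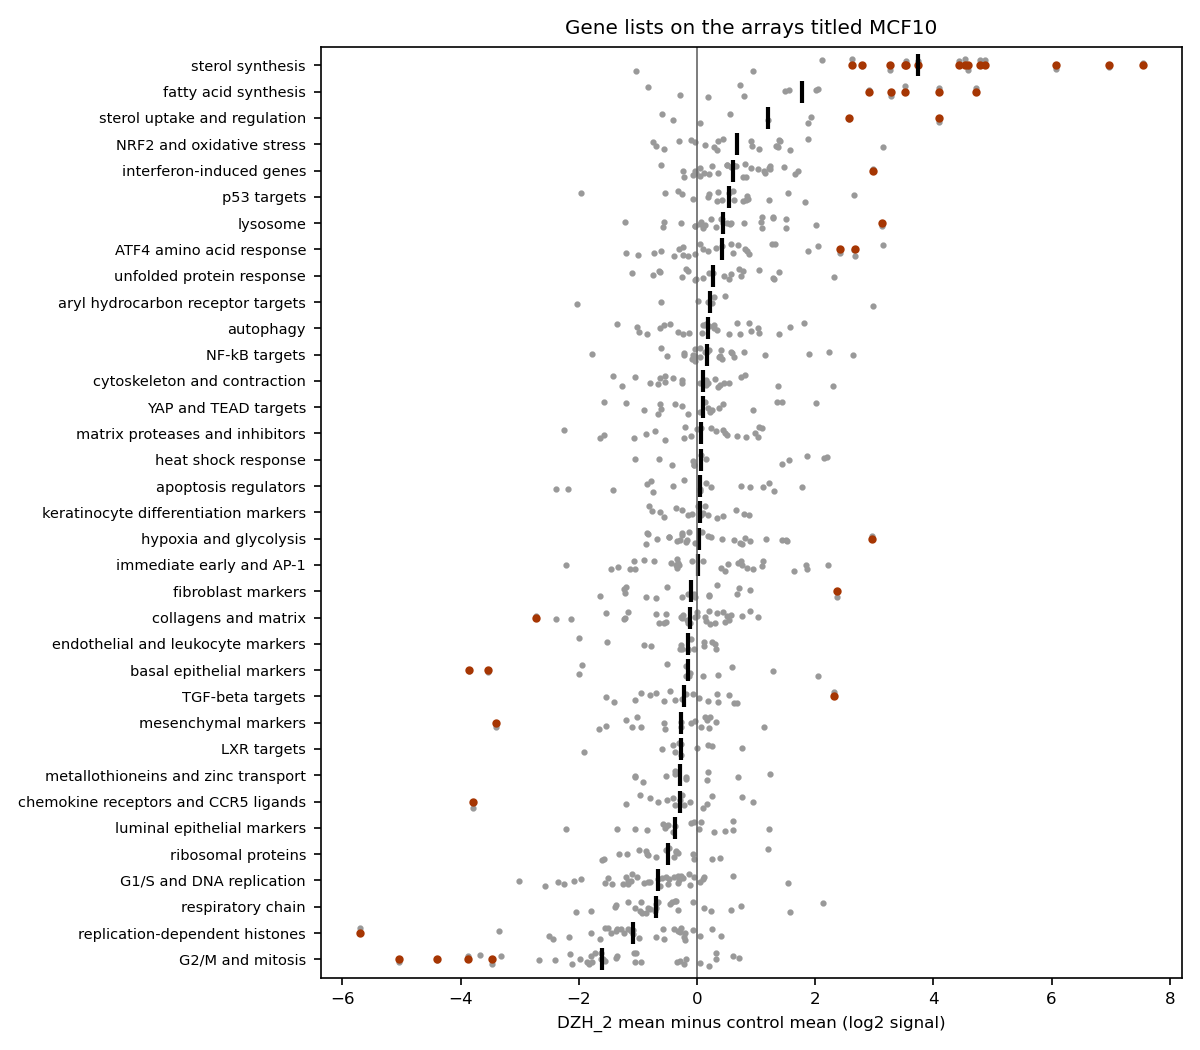
Treated minus control mean (x axis, log2 signal) for the measured members of 35 gene lists on the arrays titled MCF10, 1 point per gene, with genes past the limma threshold in dark orange and the list median as a black bar. Sterol synthesis has the highest median, 3.74, and the G2/M list the lowest, -1.61.

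The same contrast was set beside that in MDA-MB-231, with 4 treated and 3 control arrays. A limma interaction over the 11 arrays found 1281 genes whose response differed between the lines (7.24%), 654 higher (3.7%) and 627 lower (3.54%) in the cells titled MCF10. CYP51A1 differed most upward: it rose by 6.96 ± 0.35 here and by 2.09 ± 0.23 in MDA-MB-231, a line difference of 4.88 ± 0.39 (adjusted p = 4.1e-05, limma). SCNN1G differed most downward, at -7.56 ± 0.37 here and 0.07 ± 0.20 in MDA-MB-231, where its control mean of 3.16 lay near the negative controls, so a fall there could not be measured. ACKR3, RBP4, KRT5 and SCNN1B likewise had MDA-MB-231 control means near the negative controls, 4.62, 4.53, 4.51 and 5.97. The sterol genes MSMO1 (line difference 1.13, adjusted p = 0.23, limma), INSIG1 (0.85, adjusted p = 0.21, limma) and DHCR7 (1.28 ± 0.38, adjusted p = 0.058, limma) did not pass the test of a difference. With DMSO alone as control 354 genes passed, and without the IC50 array of the cells titled MCF10 2515 did. Leaving out a control array of those cells gave 753 (DMSO) or 711 (untreated), and leaving out one of MDA-MB-231 gave 496 or 720 (DMSO) and 830 (untreated).

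**Figure D4:**
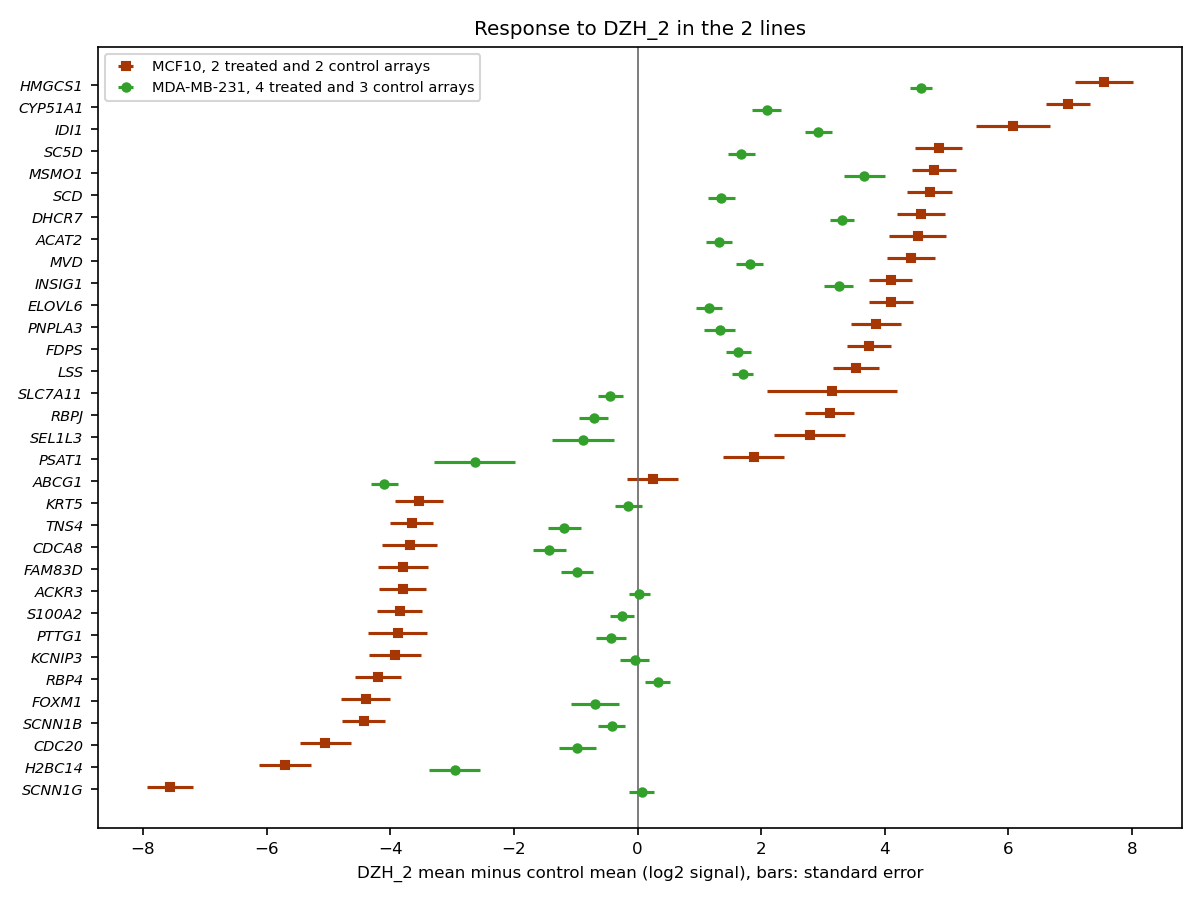
Treated minus control mean (x axis, log2 signal) of the named genes for the cells titled MCF10 (squares, 2 treated and 2 control arrays) and MDA-MB-231 (circles, 4 treated and 3 control arrays), with bars for the standard error. Most genes were chosen for their values in the cells titled MCF10, so their larger size there is favoured by the choice. PSAT1, ABCG1, RBPJ, SEL1L3 and SLC7A11 were chosen for their line difference. Of these, ABCG1 (0.25 against -4.10) and PSAT1 (1.88 against -2.63) had the larger size in MDA-MB-231. SCNN1G, ACKR3, KCNIP3 and RBP4 lie near 0 in MDA-MB-231.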

How the data were processed

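The authors deposited log2 signals of 24351 probe sets on 17 Affymetrix arrays. Per the labels' protocols, biotinylated cRNA was made from 5.5 ug of total RNA. The sources used here do not give the summarisation, normalization or array build. The deposited log2 values were left as they are. Of the probe sets, 17709 had 1 gene symbol, 3739 no listed gene, and 2903 were controls. The brightest probe set stood for each of 20 genes that had more than 1 (10 differed in sign here), leaving 17687 genes. The number of arrays limits the precision.

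Treated and control arrays were compared with limma 3.58.1 in R 4.3.3 (lmFit, eBayes, 2-sided, Benjamini-Hochberg over all genes, threshold 0.05). An exact permutation test of 2 against 2 arrays cannot go below 0.333. The step was tested on simulated data. Named genes were the 14 largest rises and falls past the threshold with all treated arrays beyond the controls and the higher mean above the negative controls, up to 4 such members per list with its defining members, and the 6 largest line differences each way. Other genes past the threshold, and promoter examples, were picked after their values were seen. The members, the 35 lists and the rules were chosen with earlier results of these data known. Alternatives were quantile normalization, median centring, a low-signal filter, another source of the spread, a variance trend, probe set means, each array left out and a replicate block.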

Additional observations from a re-analysis of the deposited data

Results flagged for a closer look

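The response to DZH_2 differed between the cells titled MCF10 and MDA-MB-231 in 1281 genes by the limma interaction, and the values here are log2 line differences, MCF10 minus MDA-MB-231, for the named genes past that test. The largest upward differences were those of CYP51A1 (4.88), the serine synthesis enzyme PSAT1 (4.51), the sterol exporter ABCG1 (4.34), the Notch pathway transcription factor RBPJ (3.82), SEL1L3 (3.67) and SLC7A11 (3.58). ABCG1 did not respond past the threshold here (0.25, near the negative controls) and differed by -4.10 in MDA-MB-231, so a fall here could not be measured and its line difference rests on a floor. PSAT1 had 1.88 here and -2.63 in MDA-MB-231.

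Lipid genes with a larger difference in the cells titled MCF10, as favoured by their choice there, were SCD (3.37), ACAT2 (3.22), SC5D (3.20), IDI1 (3.15), HMGCS1 (2.96), ELOVL6 (2.94), MVD (2.62), PNPLA3 (2.52), FDPS (2.11) and LSS (1.83). For SCD the treated means were 15.34 here and 15.31 in MDA-MB-231 and the control means 10.61 and 13.95, and for IDI1 the treated means were 12.83 and 13.03 and the control means 6.75 and 10.11. The control means of HMGCS1, SC5D and ELOVL6 here lay near the negative controls, as did those of CYP51A1 (5.50) and RBPJ (5.29). The largest downward differences were those of SCNN1G (-7.63), RBP4 (-4.52), CDC20 (-4.08), SCNN1B (-4.01), KCNIP3 (-3.88) and ACKR3 (-3.83). The MDA-MB-231 control means of SCNN1G, RBP4, SCNN1B, ACKR3 and KRT5 lay near the negative controls, so a fall there could not be measured. Further downward differences were FOXM1 (-3.71), S100A2 (-3.60), PTTG1 (-3.45), KRT5 (-3.40), FAM83D (-2.82), H2BC14 (-2.75), TNS4 (-2.47) and CDCA8 (-2.26).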

How the results depend on the processing

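No named gene changed direction under an alternative that was run, and in the fit on the 4 arrays each lost its call without the IC20 or the IC50 array. With the spread of all 17 arrays, each kept its call without either of them. The 94 genes past the threshold (45 up, 49 down) became 85 under quantile normalization, 114 under median centring (45 up, 69 down) and 94 with probe set means. They became 183 with the low-signal filter (81 up, 102 down), 266 with a variance trend (102 up, 164 down) and 2171 with the spread of all 17 arrays (1033 up, 1138 down). Leaving out 1 array gave 0 to 39 genes, 0 to 22 up and 0 to 17 down, and the fit then has 1 array in an arm, assumed to vary like the other arm. Chosen after seeing the data, the spread of all 17 arrays gave 1024 genes without the IC20 array (545 up, 479 down), 2290 without the IC50 array (1034 up, 1256 down) and 1247 with DMSO alone as control (574 up, 673 down).

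The 1281 genes that differed between lines became 354 with DMSO alone as control (215 up, 139 down), and 496 to 2515 with 1 array left out (255 to 1118 up, 241 to 1397 down). With the replicate block the count was 1252. Deviations of same-numbered MDA-MB-231 arrays correlated at 0.30, 0.07 and -0.03, so the numbers were not taken to pair the samples. The 4 arrays titled MCF10 all carry replicate number 1. No paired analysis was possible because these groups share fewer than 2 numbers. With the low-signal filter, genes past a single-array difference of 1 numbered 2015 for IC50 against IC20 (3132 without it) and 745 for untreated against DMSO (1464 without it).

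Signals near the negative controls limit the size of a difference: 12 rises started there and 10 falls ended there.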

Other observations

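Some genes had unlike values on the 2 treated arrays. With the spread of all 17 arrays, limma put 311 genes past the threshold between IC50 and IC20, 193 higher and 118 lower at IC50, a comparison of 1 array with 1 array added after seeing the data, whose genes were picked after their values were seen. With no replicate of a dose and a spread wholly from duplicate arrays of the other line, dose and array cannot be told apart. The neutrophil chemokine CXCL8 had 5.85 at IC20 and 10.93 at IC50, against 6.42 in DMSO and 5.90 in untreated cells. TNFAIP3, an inhibitor of NF-kB signalling, had 7.61 and 11.52 against 6.89 and 6.98. Both were high on the IC50 array alone. The aldo-keto reductase AKR1C2 had 9.70 at IC20 and 14.19 at IC50 against 11.75 and 12.33, so the IC20 array lay below both controls and the IC50 array above them. The histone H2AC13 had 15.79 at IC20 and 12.18 at IC50 against 15.61 and 15.27. The IC20 array is also the one with the narrowest range of signal, and the part of that in these differences was not tested.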
